A study of Mus musculus with 6 samples.

Results

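The 10 genes that carry, store or release iron in the enterocyte followed here, across 6 libraries, are Slc11a2, Cybrd1, Slc40a1, Heph, Tfrc, Fth1, Ftl1, Slc46a1, Slc39a14 and Ncoa4. They were taken by symbol from a table of 55298 Ensembl genes, each symbol matched 1 identifier, and all 10 were among the 15143 genes with enough reads to be tested. RNA came from epithelial cells of the small intestine. The mice had collagen-induced arthritis, joint inflammation brought on by immunising with collagen. The 3 libraries labelled knockout carry the genotype HIF2α +/- ΔIEC and are described as an intestine-specific HIF2α knockout. The 3 libraries labelled control carry the genotype HIF2α +/- F/F and are described as littermate controls. All 6 libraries came from arthritic mice, and no library from mice without arthritis was analysed here. The promoter behind the deletion, the meaning of +/- in both labels, and the age and sex of the mice are not given in the sources used here.

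Dietary iron enters the duodenal enterocyte as ferrous iron through DMT1 (Slc11a2) after reduction by Dcytb (Cybrd1), is held in ferritin (Fth1 and Ftl1) or leaves through ferroportin (Slc40a1), and is oxidised on the way out by hephaestin (Heph). HIF2α, encoded by Epas1, is an oxygen- and iron-sensitive transcription factor that is known to activate Slc11a2, Cybrd1 and Slc40a1 in the intestine. Apart from transcription, iron regulatory proteins bind a hairpin, the iron-responsive element, in several of these mRNAs: in a 5' untranslated region it blocks translation, and in the 3' untranslated region of Tfrc it protects the mRNA from decay.

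Library totals lay between 28937122 and 32542170 counted reads in the libraries labelled knockout and between 35686871 and 38454620 in those labelled control. Levels are CPM, the library's reads scaled to a common depth by TMM, edgeR's size correction. Epas1 was higher in the libraries labelled knockout, although their label names its product as knocked out. It had 44.2, 25.9 and 31.9 CPM there and 12.2, 19.4 and 17.5 CPM in the libraries labelled control (log2 fold change 1.06, SE 0.28, adjusted p = 0.0061, edgeR). Corrected for GC content and length as described below, Epas1 was at 1.003 (SE 0.24, adjusted p = 0.014). Its sign was positive in every alternative run, and its edgeR call was lost with length alone corrected (0.43, adjusted p = 0.19) and, on the corrected scale, without knockout-labelled library 1 (0.78, adjusted p = 0.067). Counts per gene do not show which exons the reads came from, so they cannot show whether the deletion took place. Every direction below is therefore that of the library labels. Epithelial identity was checked with Vil1, at 2110 to 2593 CPM in the libraries labelled knockout and 2429 to 3751 CPM in those labelled control. Over 12 enterocyte markers the summed level was 19260 to 23911 CPM in the libraries labelled knockout and 40990 to 52762 CPM in those labelled control. Apoa1 and Apoa4 held most of that difference: they summed to 7080 to 8310 CPM in the libraries labelled knockout and 22347 to 38745 CPM in those labelled control, and the other 10 enterocyte markers to 12181 to 15601 CPM in those labelled knockout and 14017 to 18643 CPM in those labelled control. Over 10 crypt and proliferation markers the sum was 1482 to 1747 CPM in those labelled knockout and 614 to 781 CPM in those labelled control. There Olfm4 alone had 879 to 1122 CPM in the libraries labelled knockout and 99.6 to 237 CPM in those labelled control, and the other 9 summed to 535 to 624 CPM in those labelled knockout and 515 to 543 CPM in those labelled control. Without correction the enterocyte markers held 3 genes called higher and 4 called lower of 12, and the crypt markers 4 higher and 2 lower of 10. These counts stand beside 37.2% higher and 29.7% lower of all tested genes. With correction the enterocyte markers held 1 higher and 4 lower, and the crypt markers 2 higher and 2 lower, beside 14.3% higher and 15.6% lower. The part of cell makeup in any result below was not tested. In bulk RNA, fewer cells of a type and less RNA per cell cannot be told apart. The labels do not state whether each library is from a separate mouse. The p-values measure the spread between these libraries, part of which may be technical. Xist had 0.437, 0.443 and 172 CPM in the libraries labelled knockout, and the Y-linked Eif2s3y 17.5, 19.5 and 0 CPM. In those labelled control, Xist had 51.9, 0.322 and 48.4 CPM and Eif2s3y 0, 3.57 and 5.21 CPM, so control-labelled library 3 held both. Neither group thus came from 1 mouse alone, and the part of sex in the values was not tested.

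Without correction for transcript composition, 3 of the 10 iron genes were higher in the libraries labelled knockout (Heph, Tfrc and Ncoa4), 3 were lower (Fth1, Ftl1 and Slc46a1) and 4 did not pass the test (Slc11a2, Cybrd1, Slc40a1 and Slc39a14), at an adjusted p below 0.05 in edgeR's quasi-likelihood test. Of all tested genes, 37.2% were called higher and 29.7% lower, so these shares are near the background. For 6 of the 10 genes the groups did not overlap, a share set against 72.6% over all tested genes. For each of those 6 genes a two-sided exact permutation test over libraries gave p = 0.1, the smallest that 3 against 3 libraries allow.

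**Figure D1:**
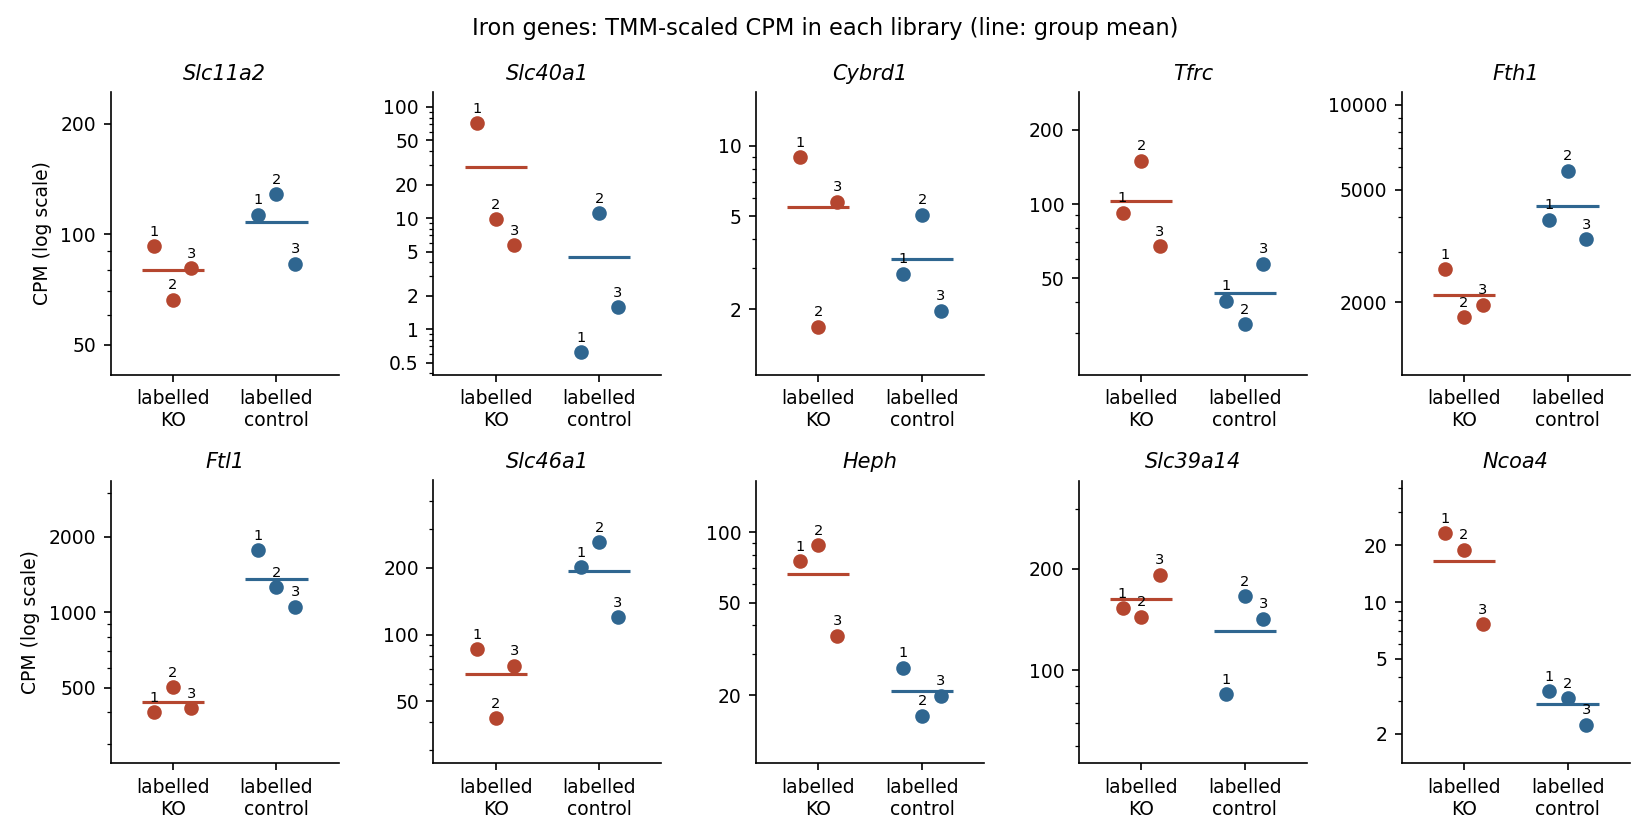
TMM-scaled CPM (vertical axis, log scale) of the 10 iron genes in each library, with libraries labelled knockout on the left (red), libraries labelled control on the right (blue), library numbers above the points and a line at each group mean. Heph, Tfrc and Ncoa4 lie higher in every library labelled knockout, Fth1, Ftl1 and Slc46a1 lie lower in every one, and Slc40a1 spreads from 5.66 to 71.7 CPM within the libraries labelled knockout.

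Fold changes across the whole table followed the GC content of the transcripts, and some of the iron genes went in the direction of that trend. Tfrc, at 38.94% GC, lies below the 10th percentile of tested genes (42.96%) and was higher. Ftl1 (58.05%) and Slc46a1 (57.08%) lie close to the 90th percentile (58.25%) and were lower. Slc40a1, Ncoa4 and Slc39a14 lay off it, with uncorrected log2 fold changes of 2.71 (SE 1.58), 2.52 and 0.31 where the trend of GC content and length by itself gave 0.31, 1.08 and -0.68. Fth1, Cybrd1, Slc46a1 and Ftl1 also differed from that trend, at -1.05, 0.73, -1.55 and -1.63 where it gave -0.30, 1.45, -0.85 and -1.11. A correction was therefore fitted within each library by splines of GC content and length, taken as the median over a gene's annotated transcripts. It removes any true difference that follows GC content or length as well, and since the trend divides the libraries by label, the trend and the genotype cannot be told apart. After it, 2 of the 10 genes were higher (Ncoa4 and Slc39a14), 0 were lower and 8 did not pass the edgeR quasi-likelihood test, where 14.3% of tested genes were higher and 15.6% lower. At an unadjusted p below 0.05 the corrected edgeR fit had 2 genes lower, Fth1 and Ftl1. The corrected count of higher genes was 0 without knockout-labelled library 1 and 1 without knockout-labelled library 2, knockout-labelled library 3 or control-labelled library 3, and without the last of these 1 gene was lower (Fth1, -0.90, adjusted p = 0.040). On the corrected scale the groups did not overlap for Fth1, Ftl1, Slc39a14 and Ncoa4, 4 of the 10 genes, beside 47.9% over all tested genes. Ncoa4 was the gene called in the same direction in both fits.

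**Figure D2:**
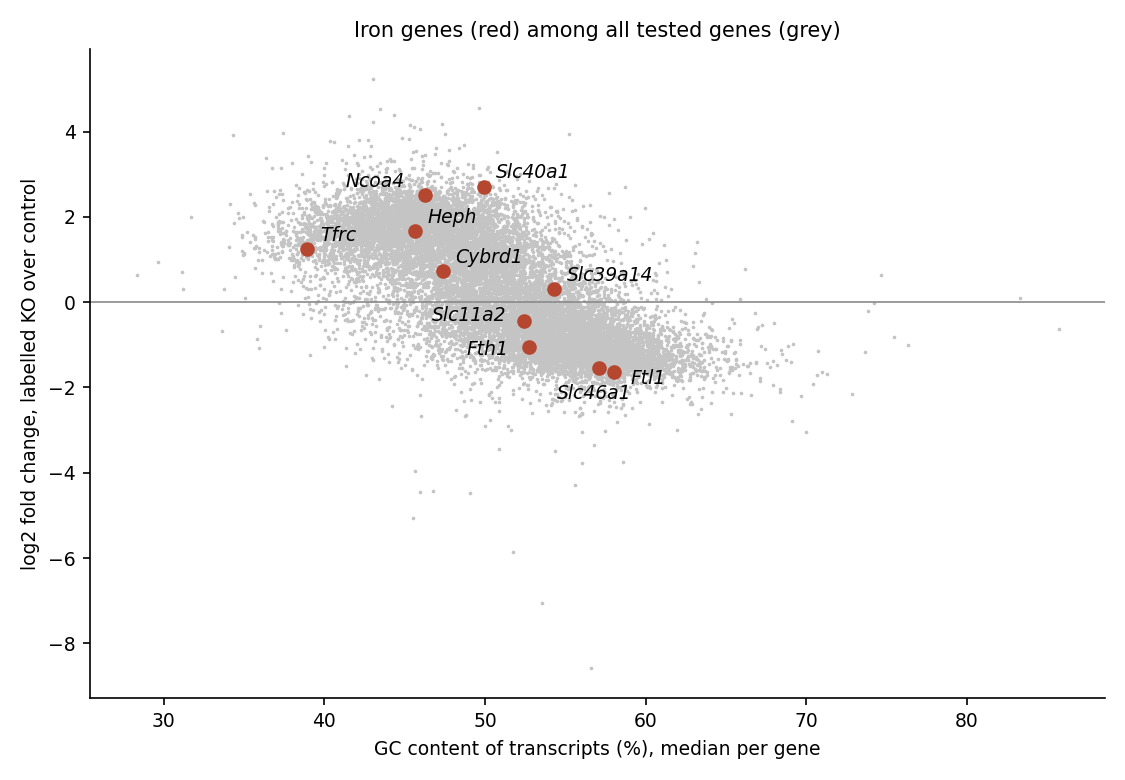
Log2 fold change of libraries labelled knockout over those labelled control (vertical axis) against the median GC content of a gene's transcripts in percent (horizontal axis), for all tested genes with a GC value (grey) and the 10 iron genes (red). The iron genes run from Tfrc at 38.94% GC and 1.24 to Ftl1 at 58.05% GC and -1.63, and Slc40a1 and Ncoa4, at 2.71 and 2.52, lie highest of the 10.

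Slc11a2 (DMT1, the apical importer of ferrous iron, GRCm38 chromosome 15, 100387898 to 100425072) had 92.5, 66.2 and 80.8 CPM in the libraries labelled knockout, against 113, 128 and 83.1 CPM in those labelled control. The groups overlapped through control-labelled library 3. Its log2 fold change stood at -0.44 (SE 0.24, adjusted p = 0.12, edgeR), and the edgeR call passed at -0.64 (adjusted p = 0.027) when that library was left out. The corrected value was -0.21 (SE 0.21, adjusted p = 0.47). Scaling by total counts, which shifts the median of all tested genes up by 0.47, gave 0.06. An unstranded count could include Gm5475 on the opposite strand, whose 115 reads over all libraries compare with 2241 or more Slc11a2 reads in each library.

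Cybrd1 (Dcytb, the ferric reductase of the brush border, chromosome 2, 71117923 to 71142926) was the lowest of the 10 genes per kilobase of transcript in both groups. It had 8.95, 1.68 and 5.78 CPM in the libraries labelled knockout and 2.84, 5.09 and 1.98 CPM in those labelled control, so both the highest and the lowest library carried the knockout label. The log2 fold change stood at 0.73 (SE 0.56, adjusted p = 0.27, edgeR), and it passed at 1.16 (adjusted p = 0.031) without knockout-labelled library 2. Correction turned its sign, to -0.78 (SE 0.62, adjusted p = 0.37).

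Slc40a1 (ferroportin, the cellular exporter of iron, chromosome 1, 45908068 to 45926523) varied most, by 115-fold between its lowest and highest library. It had 71.7, 9.72 and 5.66 CPM in the libraries labelled knockout, from 2957, 329 and 191 reads. The libraries labelled control had 0.623, 11.1 and 1.57 CPM, from 18, 345 and 54 reads. Control-labelled library 2 lay above 2 of the 3 libraries labelled knockout, and the means were 29.0 ± 37.0 CPM and 4.44 ± 5.80 CPM (SD, n = 3 each) in the libraries labelled knockout and labelled control. The log2 fold change of 2.71 had an SE of 1.58 (adjusted p = 0.19, edgeR). As libraries were left out it spanned 0.80 (adjusted p = 0.63) without knockout-labelled library 1 to 4.73 (adjusted p = 0.014) without control-labelled library 2, both by edgeR. The corrected value was 2.39 (SE 1.37, adjusted p = 0.24), and 4.41 (adjusted p = 0.047) without control-labelled library 2.

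The libraries highest for Slc40a1 and Cybrd1, knockout-labelled library 1 and control-labelled library 2, were also the highest of their groups for 2 of 6 markers of the proximal intestine, Pdx1 and Onecut2, and in at least 1 group another library was highest for the other 4. Pdx1, a transcription factor singled out after its values were seen, had 17.2, 3.78 and 3.94 CPM in the libraries labelled knockout and 0.450, 30.3 and 1.804 CPM in those labelled control, and was not called (log2 fold change -0.38, SE 1.63, adjusted p = 0.85, edgeR). Onecut2 had 37.2, 25.7 and 25.8 CPM in the libraries labelled knockout and 3.71, 7.25 and 4.48 CPM in those labelled control. Gata4 was highest in knockout-labelled library 3 and control-labelled library 1, Lct and Fabp1 in library 3 of either label, and Adh1 in knockout-labelled library 1 and control-labelled library 3. Summed over the 6 proximal markers, the level was 2522, 2140 and 2909 CPM in the libraries labelled knockout and 2194, 2704 and 2792 CPM in those labelled control, highest in library 3 of either label, with 3 of 6 called higher and 1 lower. Over 5 distal markers the summed level was lowest in knockout-labelled library 1 and control-labelled library 2, the libraries highest for Slc40a1 and Cybrd1. It was 942, 2159 and 1565 CPM in the libraries labelled knockout and 2207, 1552 and 2490 CPM in those labelled control. Of these markers 2 were called higher and 2 lower. These calls were made without correction, beside 37.2% higher and 29.7% lower of all tested genes. With correction 1 proximal marker was higher and 2 lower, and 0 distal markers were higher and 1 lower, beside 14.3% higher and 15.6% lower. The sources used here do not say which stretch of intestine each library came from, and its part in the Slc40a1 and Cybrd1 values was not tested. Macrophages also hold ferroportin. Summed over 10 macrophage markers, the level was 39.6, 42.9 and 23.5 CPM in the libraries labelled knockout. Those labelled control had 24.7, 44.7 and 27.6 CPM, so library 2 of either label was highest. Without correction 2 of 8 tested macrophage markers were called higher, beside 37.2% of all tested genes, and with correction 1 of 8, beside 14.3%. At most 1 of the 10 macrophage markers was at 0 reads in any library, Cd163 in 5 of the 6. The part of macrophages in the Slc40a1 values was not tested.

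**Figure D3:**
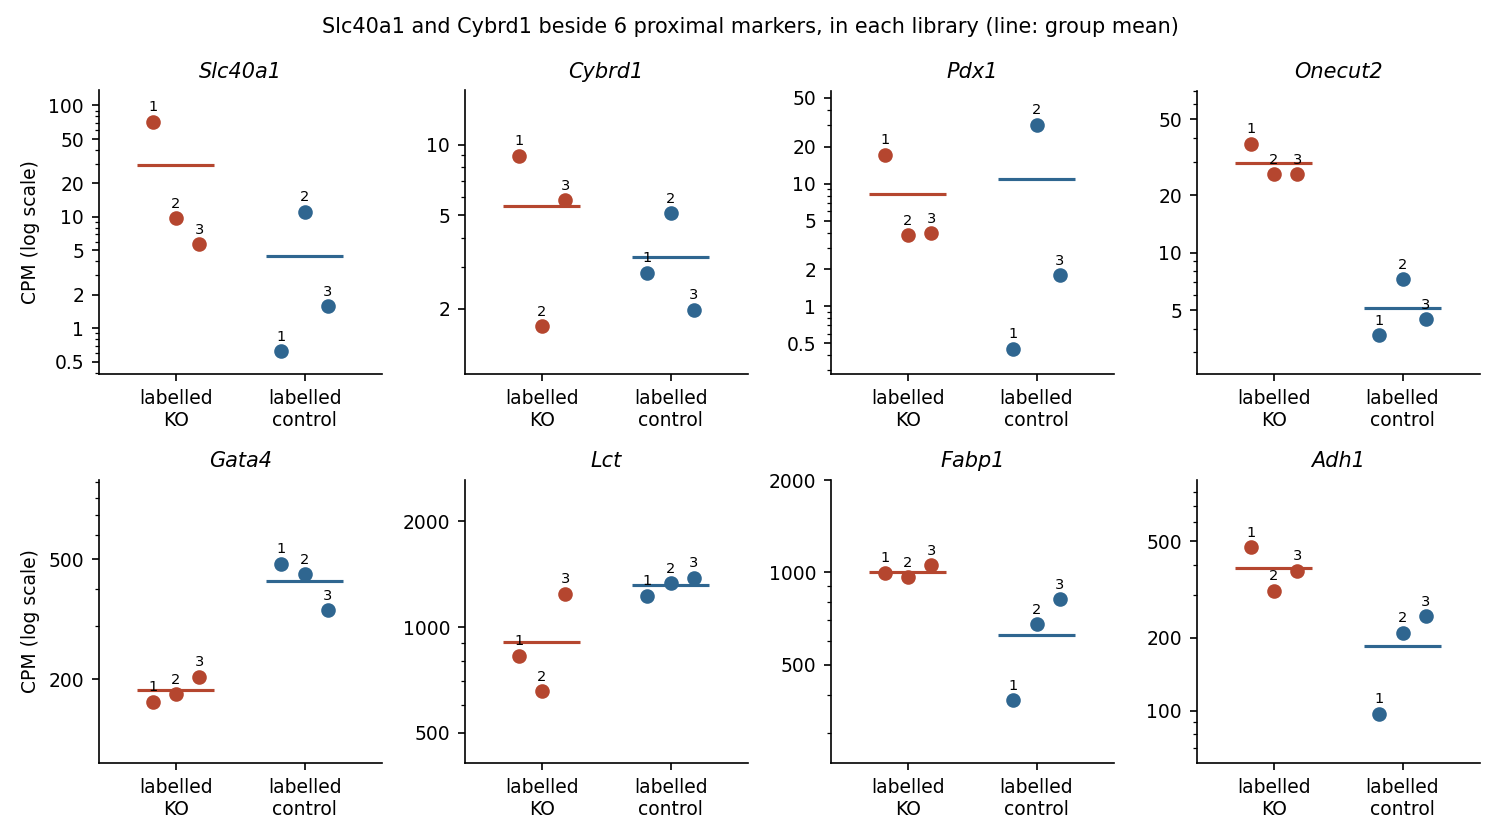
TMM-scaled CPM (vertical axis, log scale) of Slc40a1, Cybrd1 and 6 markers of the proximal intestine in each library, with libraries labelled knockout on the left, those labelled control on the right, library numbers above the points and a line at each group mean. Knockout-labelled library 1 and control-labelled library 2 are the highest of their groups for Slc40a1, Cybrd1, Pdx1 and Onecut2, and other libraries are highest for Gata4, Lct and Fabp1.

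The iron-responsive-element genes are shown with their hairpins because these are the sites that iron regulatory proteins read. GENCODE M21 transcripts on GRCm38 were searched for the letters C, then 5 bases, CAGTG, then A, C or T, and 5 bases pairing with the first 5. G with T was counted as a pair. The loop is in capitals and 6 bases flank each side. A match in letters is not evidence of binding. It was found in 137 of 13256 tested protein-coding principal transcripts (1.03%), among them Fth1, Ftl1, Slc40a1 and Tfrc. No match in these letters was found in Slc11a2 or Epas1, which the gene lists used here also count among mRNAs with an iron-responsive element. The search asked for 5 paired bases, so the lack of a match does not show that the element is absent.
Fth1, 5' untranslated region, chr19:9982732-9982760, plus strand: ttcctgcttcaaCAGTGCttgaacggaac
Ftl1, 5' untranslated region, chr7:45459779-45459807, minus strand: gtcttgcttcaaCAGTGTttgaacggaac
Slc40a1, 5' untranslated region, chr1:45925465-45925493, minus strand: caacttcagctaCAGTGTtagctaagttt
Tfrc, 3' untranslated region, chr16:32631219-32631247, plus strand: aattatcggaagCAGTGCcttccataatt
Tfrc, 3' untranslated region, chr16:32631598-32631626, plus strand: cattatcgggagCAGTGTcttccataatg
Tfrc, 3' untranslated region, chr16:32631663-32631691, plus strand: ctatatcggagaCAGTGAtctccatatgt
Tfrc, 3' untranslated region, chr16:32631710-32631738, plus strand: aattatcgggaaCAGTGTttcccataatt
The ferritin and ferroportin hairpins lie before the coding sequence and all 4 Tfrc hairpins after it.

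Tfrc (transferrin receptor, which takes up transferrin-bound iron, chromosome 16, 32608920 to 32632794) was higher without correction. It had 92.2, 149 and 67.7 CPM in the libraries labelled knockout, against 40.7, 32.7 and 57.3 CPM in those labelled control, and the groups did not overlap. The log2 fold change stood at 1.24 (SE 0.32, adjusted p = 0.0049, edgeR). The GC content and length trend by itself gave 1.27 for this gene, and the corrected log2 fold change stood at -0.06 (SE 0.20, adjusted p = 0.86). Of the proliferation markers Mki67, Top2a, Pcna, Mcm5, Ccnb1 and Cdk1, edgeR called Top2a (1.44) and Ccnb1 (1.97) higher and Mcm5 (-0.92) lower without correction, and Mcm5 (-1.06) and Cdk1 (-1.007) lower with it. The part of proliferation in the Tfrc values was not tested.

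Ferritin transcripts were by far the most abundant of the 10 genes and were lower without correction. Fth1 (ferritin heavy chain, which oxidises iron for storage, chromosome 19, 9980598 to 9985098) had 2611, 1772 and 1956 CPM in the libraries labelled knockout, against 3910, 5838 and 3338 CPM in those labelled control. Its log2 fold change stood at -1.05 (SE 0.28, adjusted p = 0.0058, edgeR), and the call was lost at -0.83 (adjusted p = 0.054) without control-labelled library 2 and at -0.55 (adjusted p = 0.11) under total count scaling. Ftl1 (ferritin light chain, which aids the mineral core, chromosome 7, 45457944 to 45459884) had 401, 504 and 415 CPM in the libraries labelled knockout, against 1767, 1257 and 1055 CPM in those labelled control. Its log2 fold change stood at -1.63 (SE 0.25, adjusted p = 0.00036, edgeR), called without each library in turn. For both genes every library labelled knockout lay below every library labelled control.

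After correction Fth1 was at -0.73 (SE 0.25, adjusted p = 0.056) and Ftl1 at -0.49 (SE 0.18, adjusted p = 0.063), both just short of the edgeR threshold. The trend by itself gave -0.30 for Fth1 and -1.11 for Ftl1. Corrected levels still did not overlap: Fth1 had 2930, 1968 and 2152 CPM in the libraries labelled knockout, against 3679, 5063 and 2981 CPM in those labelled control. Ftl1 had 607, 734 and 594 CPM in the libraries labelled knockout, against 1021, 833 and 873 CPM in those labelled control, on the corrected scale. Together the ferritin chains took 0.381%, 0.266% and 0.264% of all reads in the libraries labelled knockout and 0.426%, 0.617% and 0.405% in those labelled control. Reads on 14 further ferritin copies in the table came to 8 to 13 per library labelled knockout and 30 to 43 per library labelled control, so reads listed under copies were few; the sources used here do not say how reads mapping to several places were counted.

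The ratio of the chains showed more overlap than either gene. Fth1 reads per Ftl1 read were 6.51, 3.52 and 4.71 in the libraries labelled knockout and 2.21, 4.64 and 3.16 in those labelled control, an overlap of the groups. Both ferritin genes were lower and Tfrc was higher in every library labelled knockout, so their ratios to Tfrc must separate as well and add no further result. Ftl1 reads per Tfrc read were 4.35, 3.37 and 6.13 in the libraries labelled knockout and 43.4, 38.5 and 18.4 in those labelled control. Fth1 reads per Tfrc read were 28.3, 11.9 and 28.9 in the libraries labelled knockout and 96.1, 179 and 58.2 in those labelled control. Read counts per transcript are not divided by length here, so these ratios compare libraries and not genes, and Ftl1 and Tfrc sit at opposite ends of the GC range.

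Slc46a1 (the proton-coupled folate transporter, also described as a low-affinity heme carrier, chromosome 11, 78465697 to 78472059) was the heme gene of the set. It had 85.6, 41.9 and 72.2 CPM in the libraries labelled knockout, against 202, 262 and 120 CPM in those labelled control. The groups did not overlap, and the log2 fold change stood at -1.55 (SE 0.33, adjusted p = 0.0021, edgeR), called without each library in turn. The trend by itself gave -0.85. The corrected log2 fold change stood at -0.66 (SE 0.29, adjusted p = 0.12, edgeR), and corrected levels of 116, 55.6 and 96.7 CPM in the libraries labelled knockout overlapped with 134, 184 and 106 CPM in those labelled control.

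Heph (hephaestin, the ferroxidase that works beside ferroportin, chromosome X, 96455359 to 96574485) was higher without correction. It had 75.3, 87.8 and 36.0 CPM in the libraries labelled knockout, against 26.3, 16.4 and 19.9 CPM in those labelled control. The groups did not overlap, and library 3, the lowest of those labelled knockout, is also the one of them with Xist (172 CPM, against 0.437 and 0.443 CPM in libraries 1 and 2). Among those labelled control the order was the other way. Xist had 51.9 CPM in library 1, the highest for Heph, 0.322 CPM in library 2, the lowest, and 48.4 CPM in library 3. The part of sex in the Heph values was not tested. The log2 fold change stood at 1.67 (SE 0.33, adjusted p = 0.0012, edgeR), while the trend by itself gave 1.62. Per library, that trend put Heph 0.88, 0.90 and 0.65 log2 units up in the libraries labelled knockout and -0.94, -0.98 and -0.51 in those labelled control, relative to the mean library. The corrected log2 fold change stood at -0.00 (SE 0.31, adjusted p = 0.998, edgeR).

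Slc39a14 (ZIP14, a carrier of zinc, manganese and non-transferrin-bound iron, chromosome 14, 70303469 to 70351425) was called higher with correction and, under TMM scaling, not without it. It had 153, 144 and 192 CPM in the libraries labelled knockout, against 85.1, 166 and 142 CPM in those labelled control, and the groups overlapped. The log2 fold change stood at 0.31 (SE 0.26, adjusted p = 0.31, edgeR). Total count scaling, without correction, gave 0.76 (adjusted p = 0.0496, edgeR), a call. After correction it was 0.98 (SE 0.26, adjusted p = 0.020, edgeR), with corrected levels of 196, 183 and 238 CPM in the libraries labelled knockout and 64.7, 125 and 123 CPM in those labelled control. The corrected call was narrowly lost without knockout-labelled library 1 (1.02, adjusted p = 0.052) and without knockout-labelled library 3 (0.86, adjusted p = 0.051), both by edgeR.

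Ncoa4 (the receptor that brings ferritin to the autophagosome for breakdown, chromosome 14, 32159865 to 32179855) had the largest called change of the 10 genes. It had 23.2, 19.0 and 7.62 CPM in the libraries labelled knockout, against 3.36, 3.09 and 2.24 CPM in those labelled control, and every library labelled knockout lay above every one labelled control. The log2 fold change stood at 2.52 (SE 0.41, adjusted p = 0.00043, edgeR), of which the trend by itself gave 1.08. The corrected log2 fold change stood at 1.38 (SE 0.40, adjusted p = 0.031, edgeR), with levels of 15.4, 12.4 and 5.73 CPM in the libraries labelled knockout and 5.36, 4.97 and 2.68 CPM in those labelled control. The corrected edgeR call was lost without knockout-labelled library 1 (1.08, adjusted p = 0.11), knockout-labelled library 2 (1.31, adjusted p = 0.082), control-labelled library 2 (1.47, adjusted p = 0.070) or control-labelled library 3 (1.11, adjusted p = 0.079), and the sign stayed positive in each.

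The corrected values depended on which transcript of a gene supplied its GC content and length. Of the 15135 tested genes with a GC value, 6357 have a longest transcript of at least 2 times the median length, and 6 of the 10 iron genes do. For Slc39a14 the median over transcripts is 734 bases at 54.31% GC, the longest transcript 5117 bases at 51.73% GC and the principal transcript, that of the main annotated isoform, 4926 bases at 48.92% GC. Its corrected log2 fold change stood at 0.98 with the median, 0.08 (SE 0.23, adjusted p = 0.83) with the longest transcript and -0.75 (SE 0.23, adjusted p = 0.043) with the principal one, all by edgeR. The gene was thus called higher, not called and called lower under the 3 descriptions of 1 gene.

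The same choice moved other iron genes. With the longest transcript, edgeR called 2 of the 10 genes lower, Slc11a2 (-0.997, SE 0.25, adjusted p = 0.017) and Fth1 (-1.32, SE 0.28, adjusted p = 0.0091), and 0 higher (1 at an unadjusted p below 0.05), where 14.7% of tested genes were lower and 12.8% higher. With the principal transcript, 1 was lower (Slc39a14) and 0 were higher (0 at an unadjusted p below 0.05), where 13.2% of tested genes were lower and 11.7% higher. Ncoa4 was at 0.99 (SE 0.39, adjusted p = 0.091) with the longest and 0.85 (SE 0.38, adjusted p = 0.13) with the principal transcript, positive in each fit and called in neither. Ftl1 was at -0.16 with either transcript, Slc46a1 at -0.41 and -0.53, Tfrc at -0.40 and -0.42, Heph at 0.21 and 0.08, Cybrd1 at -0.59 and -0.73, and Slc40a1 at 1.06 and 1.01 with the longest and the principal transcript in that order, and none of these passed. No iron gene passed in the same direction in all 4 fits.

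**Figure D4:**
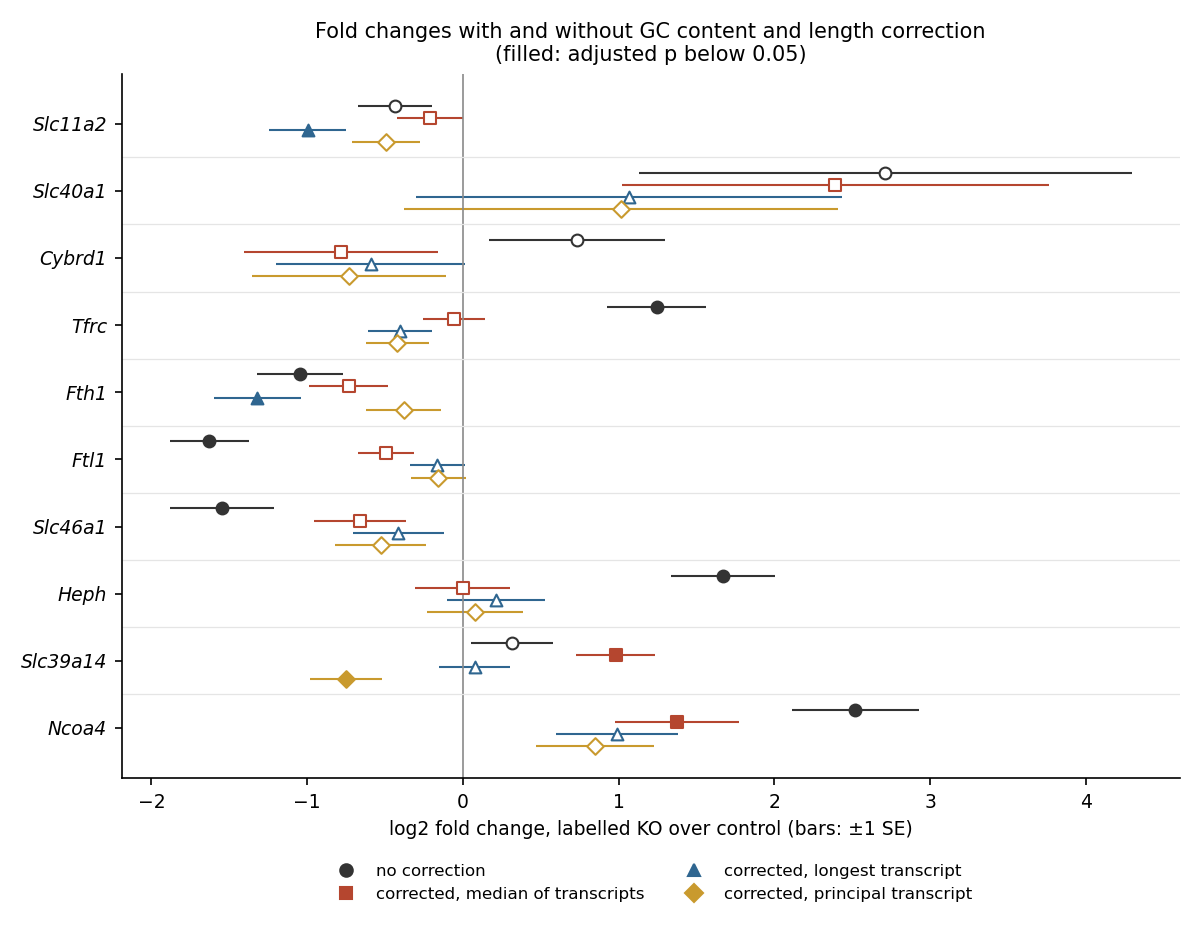
Log2 fold change of libraries labelled knockout over those labelled control (horizontal axis, bars ±1 SE) of the 10 iron genes without correction (circles) and corrected for GC content and length with the median (squares), longest (triangles) or principal (diamonds) transcript; filled marks have an adjusted p below 0.05 in edgeR. Slc39a14 spans 0.98 to -0.75 across the corrections, and Ncoa4 lies right of 0 in all 4 fits.

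Levels divided by the length of the principal transcript, in CPM per kilobase, gave the order of the genes. In the libraries labelled knockout, Fth1 averaged 1414 and Ftl1 455 CPM per kilobase, followed by Slc46a1 (33.7), Slc39a14 (33.1), Slc11a2 (26.4), Tfrc (21.1), Heph (14.0), Slc40a1 (8.62), Ncoa4 (4.08) and Cybrd1 (1.02). In the libraries labelled control, Fth1 averaged 2920 and Ftl1 1405 CPM per kilobase, followed by Slc46a1 (98.4), Slc11a2 (35.8), Slc39a14 (26.6), Tfrc (8.91), Heph (4.40), Slc40a1 (1.32), Ncoa4 (0.713) and Cybrd1 (0.618). Among the libraries labelled knockout, the ranges of neighbours from Slc46a1 down to Ncoa4 overlapped in each step. In those labelled control, overlaps were limited to Slc11a2 with Slc39a14, Slc40a1 with Ncoa4 and Ncoa4 with Cybrd1.

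A short letter match was looked for in promoters because ACGTG is a core that HIF proteins bind. Other forms of the core were not searched. RefSeq promoters on GRCm38.p6, from 250 bases before to 50 after the start, were present for 6 of the 10 genes (Cybrd1, Tfrc, Fth1, Ftl1, Slc46a1 and Ncoa4). The table holds 10 promoters for them. The letters ACGTG, on either strand, were found in 4 of these 10, 2 of 2 for Tfrc and 2 of 3 for Ncoa4, and in 0 of the 5 of the other genes, beside 6447 of 32851 promoters (19.6%) in the whole table. The Tfrc promoters overlap and share 1 match, and the share was not tested. The matches are shown because they belong to Tfrc and Ncoa4, genes that were higher before correction; capitals mark the motif, and CACGT is its reverse-strand reading.
Tfrc, chr16:32608882-32608910, plus strand: ctcggtaggtgtACGTGcggaaggaagtg
Ncoa4, upstream start, chr14:32159804-32159832, plus strand: actgcatgcctcCACGTtgagctctaaga
Ncoa4, downstream start, chr14:32165709-32165737, plus strand: agggggagggagACGTGacgcgcgcaagg
A letter match is not a bound site, and binding was not measured.

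Other genes of iron and heme handling were read out as lists. Of 75 genes besides Epas1, 65 were tested, of which 14 were higher, 31 lower and 20 not called, beside 37.2% higher and 29.7% lower of all tested genes, with a median log2 fold change of -0.66, against 0.15 over all tested genes. With correction 3 were higher, 20 lower and 42 not called, beside 14.3% higher and 15.6% lower of all tested genes, with a median of -0.33, against -0.02 over all tested genes. The corrected count of lower genes was 9 without knockout-labelled library 1, 11 without knockout-labelled library 2 and 12 without control-labelled library 2, and that of higher genes 1 without knockout-labelled library 2 or control-labelled library 2. Under total count scaling, without correction, 18 were higher and 17 lower. For the 10 iron genes themselves the medians were 0.52 and, corrected, -0.13.

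Fbxl5 and Ireb2, of the iron-sensing machinery, were higher without correction and were not called with it. Fbxl5, which marks the iron regulatory protein IRP2 for breakdown when iron is plentiful, averaged 71.4 CPM in the libraries labelled knockout and 21.9 CPM in those labelled control, a log2 fold change of 1.70 (SE 0.25, adjusted p = 0.00028, edgeR) that was 0.04 (adjusted p = 0.85) after correction. Ireb2, which encodes IRP2, averaged 32.004 CPM in the libraries labelled knockout and 13.7 CPM in those labelled control. Its log2 fold change stood at 1.22 (SE 0.26, adjusted p = 0.0018, edgeR) before and -0.46 (SE 0.19, adjusted p = 0.093) after correction. Aco1, which encodes IRP1, was at 0.62 (SE 0.28, adjusted p = 0.067, edgeR) and 0.07 after correction, and it was called at 0.93 (adjusted p = 0.0053) without control-labelled library 3.

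Iron-sulfur cluster assembly held more lower genes than higher ones. Of 21 genes, 15 were lower and 3 higher, where 29.7% of all tested genes were lower and 37.2% higher. With correction 10 were lower and 1 higher, where 15.6% were lower and 14.3% higher. The corrected counts ranged from 7 to 10 lower and from 0 to 1 higher as each library was left out. Glrx5, a glutaredoxin that passes clusters on, averaged 53.0 CPM in the libraries labelled knockout and 168 CPM in those labelled control, at -1.66 (SE 0.25, adjusted p = 0.00030, edgeR) and -0.91 (SE 0.19, adjusted p = 0.0081) after correction. Hspa9, the mitochondrial chaperone of the same route, averaged 235 CPM in the libraries labelled knockout and 56.5 CPM in those labelled control. It was at 2.05 (SE 0.28, adjusted p = 0.00021, edgeR) and 0.68 (SE 0.22, adjusted p = 0.041) after correction, a call lost without knockout-labelled library 1 (0.53, adjusted p = 0.15), knockout-labelled library 2 (0.74, adjusted p = 0.078), control-labelled library 2 (0.57, adjusted p = 0.14) or control-labelled library 3 (0.59, adjusted p = 0.11). Ciao2b, of the cytosolic targeting complex, was at -1.64 (SE 0.26, adjusted p = 0.00037, edgeR) and -0.73 (SE 0.19, adjusted p = 0.019) after correction, then -0.65 (adjusted p = 0.087) without knockout-labelled library 1 and -0.31 (adjusted p = 0.24) with the longest transcript.

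Heme synthesis had 5 of 8 genes lower and 0 higher by edgeR, and 4 lower and 0 higher with correction, beside the same shares of all tested genes. At an unadjusted p below 0.05 edgeR had 1 higher without and 0 with correction, and at an adjusted p below 0.05 without correction DESeq2 called 0 and limma-voom 1 higher. Alas1, the first and rate-limiting enzyme outside the erythroid lineage, was at -0.80 (SE 0.20, adjusted p = 0.0042, edgeR) and -0.48 (SE 0.15, adjusted p = 0.040) after correction, and the corrected call was lost without each library in turn (adjusted p from 0.063 to 0.17). Alas2, the erythroid form, was at -1.76 (SE 0.51, adjusted p = 0.0091, edgeR) and -1.60 (SE 0.51, adjusted p = 0.043) after correction, at mean levels of 0.643 CPM in the libraries labelled knockout and 2.21 CPM in those labelled control. Its corrected call held without knockout-labelled library 1 alone of the 6 (adjusted p from 0.015 to 0.12). Beside it, the summed level of 8 erythroid markers was 6.85 to 30.9 CPM in the libraries labelled knockout and 53.7 to 75.8 CPM in those labelled control. Without correction 6 of 6 tested erythroid markers, Alas2 among them, were called lower, beside 29.7% of all tested genes. With correction 2 of the 6 were called lower, beside 15.6% of all tested genes. The part of erythroid cells in the Alas2 value was not tested.

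Among carriers and heme handlers, Herc2, a ubiquitin ligase that turns over NCOA4 when iron is plentiful, averaged 70.1 CPM in the libraries labelled knockout and 20.1 CPM in those labelled control. It was at 1.804 (SE 0.31, adjusted p = 0.00054, edgeR) and 1.30 (SE 0.23, adjusted p = 0.0044) after correction. Slc39a8, ZIP8, a close relative of Slc39a14, averaged 12.7 CPM in the libraries labelled knockout and 2.005 CPM in those labelled control. It was at 2.66 (SE 0.35, adjusted p = 0.00020, edgeR) and 1.14 (SE 0.28, adjusted p = 0.016) after correction, with adjusted p = 0.061 without knockout-labelled library 2 and 0.066 without control-labelled library 2. Steap3, the ferric reductase of endosomes, was at -1.21 (SE 0.28, adjusted p = 0.0029, edgeR) and -0.69 (SE 0.22, adjusted p = 0.043), and Hebp1, a heme-binding protein, at -1.001 (SE 0.28, adjusted p = 0.0083) and -0.86 (SE 0.24, adjusted p = 0.026). Both lost the corrected call without knockout-labelled library 1 or 2, or control-labelled library 1 or 2, with adjusted p up to 0.16 for Steap3 and 0.11 for Hebp1. Flvcr1, a heme exporter, was called at 1.86 (SE 0.26, adjusted p = 0.00022, edgeR) and not after correction (0.25, adjusted p = 0.44). Hmox1, the inducible heme oxygenase, was at -0.86 (SE 0.43, adjusted p = 0.092, edgeR) and -0.47 (adjusted p = 0.42) after correction. Without the correction for both, Hmox1 was called lower by DESeq2 (-0.98, adjusted p = 0.042), by limma-voom (-1.01, adjusted p = 0.023) and by edgeR without control-labelled library 1 (-1.10, adjusted p = 0.048) or with length alone corrected (-1.07, adjusted p = 0.039). Of the named genes outside the 10, Herc2 and Glrx5 kept their edgeR call in the same direction under every alternative run, with and without correction.

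**Figure D5:**
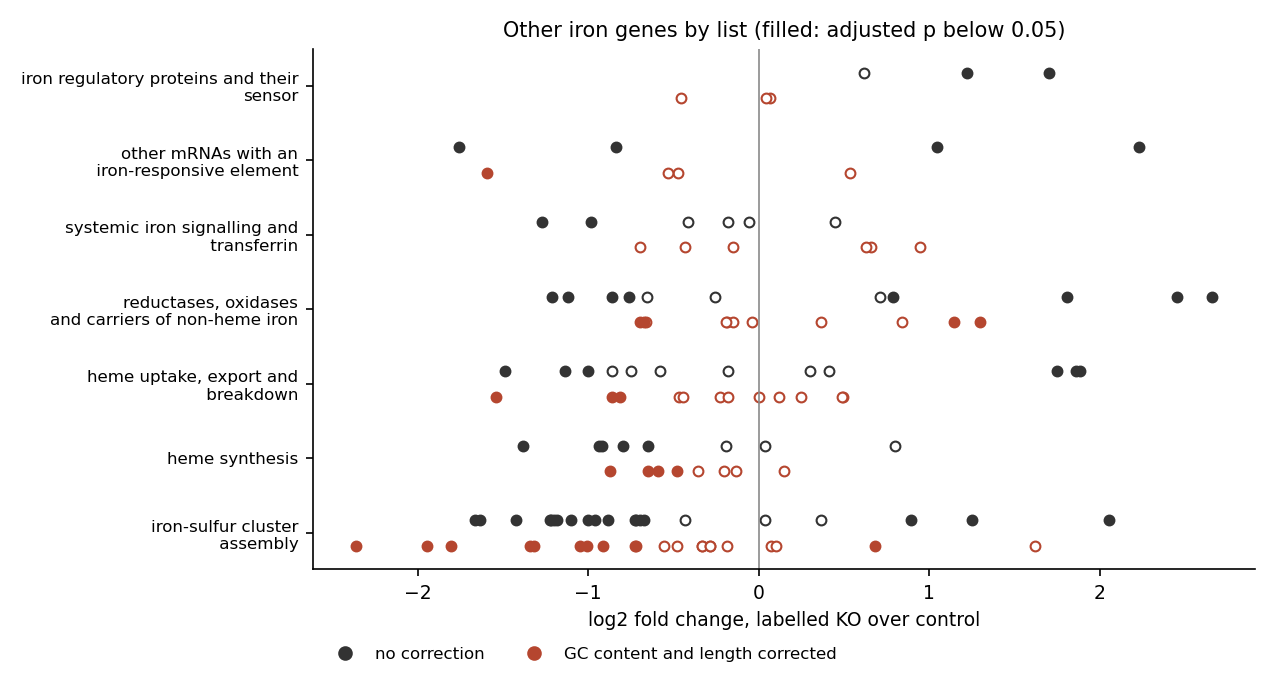
Log2 fold change of libraries labelled knockout over those labelled control (horizontal axis) of each tested gene in 7 lists of iron and heme genes, Epas1 left out, without correction (black, upper row of each list) and corrected for GC content and length (red, lower row); filled points have an adjusted p below 0.05 in edgeR. The corrected points lie closer to 0 in most lists, and in iron-sulfur assembly 10 of 21 stay filled on the lower side.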

How the data were processed

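Total RNA of isolated small intestinal epithelial cells was taken with Trizol and sequenced by Illumina methods, per the labels' protocols. The authors deposited raw read counts per Ensembl gene, which were used for every value here; per the submitters' processing notes, the tools included STAR 2.6.1c, cutadapt 1.18 and Subread 1.6.1, with GRCm38 (mm10). Strand settings and the counting of reads that map to several places are not given in the sources used here. Normalised and log-scale tables deposited by the authors were not used.

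Libraries were grouped by genotype label, 3 against 3, and replicate numbers in accession order only name libraries. Genes were filtered by filterByExpr (minimum count 10, minimum total 15), scaled by TMM and tested with the robust quasi-likelihood test of edgeR 4.0.16 in R 4.3.3, with Benjamini-Hochberg adjustment over all 15143 tested genes and a threshold of 0.05. Libraries held 28937122 to 38454620 reads; among the 10 genes the fewest reads behind a value were 18, for Slc40a1 in control-labelled library 1. For the correction, each library's log2 CPM deviation (prior count 2) was fitted by natural splines (GC content with 6 and log2 length with 5 degrees of freedom, both from GENCODE M21) and used as an offset; 55117 identifiers matched. The fit was also run on counts simulated without a trend and with the trend that the correction itself had fitted. That run used the same transcript description, so it cannot test the choice of transcript. Alternatives were other scalings and filters, DESeq2 1.42.0, limma-voom (limma 3.58.1), each library left out, and other transcripts, of which the principal transcript was added after seeing the data.

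The 10 genes and all lists were chosen with earlier results of these data known. The genes named outside them were Epas1, Aco1, Ireb2, Fbxl5, Hmox1, Flvcr1 and, from each list, at most 3 genes with the largest change among those called in the same direction with and without correction, and Pdx1, Onecut2, Olfm4, Apoa1, Apoa4, Xist, Eif2s3y, Vil1 and the proliferation and other proximal markers were named after their values were seen. Some results that this rule allows are not reported here.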

Additional observations from a re-analysis of the deposited data

How the results depend on the processing

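The counts of 3 higher and 3 lower iron genes without correction stayed within 1.5 times under other scalings, filters, tools and each library left out. They became 0 lower with GC content and length corrected and 1 higher with GC content alone corrected. The corrected counts of 2 higher and 0 lower ranged from 0 to 2 higher and from 0 to 1 lower as each library was left out. They were 0 higher and 2 lower with the longest transcript, 0 higher and 1 lower with the principal transcript, 0 higher and 1 lower with the principal transcript's GC content alone, and 1 lower with splines of 3 and 3 degrees of freedom. Signs turned as follows, on the log2 scale. With GC content and length corrected, Cybrd1 was at -0.78, Heph at -0.0013, Tfrc at -0.056 and Ireb2 at -0.46. With GC content alone corrected, Cybrd1 was at -0.46, Tfrc at -0.22, Ireb2 at -0.22 and Aco1 at -0.11, and with length alone corrected Cybrd1 was at -0.10. Slc11a2 was at 0.060 under total count scaling, whose median over all tested genes differs from that of TMM by 0.47, while that of DESeq2 size factors differs by -0.13. Among corrected values, Heph was at 0.25 without knockout-labelled library 3, 0.30 without control-labelled library 1, 0.21 with the longest transcript, 0.028 with splines of 3 and 3 degrees of freedom, 0.079 with the principal transcript and 0.30 with its GC content alone. Tfrc was at 0.079 without knockout-labelled library 3 and 0.077 without control-labelled library 3. Over all 6 left-out libraries, corrected Heph ranged from -0.206 to 0.30 and corrected Tfrc from -0.204 to 0.079. Aco1 was at -0.037 without knockout-labelled library 3 and -0.083 without control-labelled library 1, and Fbxl5 at -0.0057 with a filter of 1 CPM in 3 libraries. Slc39a14 was at -0.75 with the principal transcript and -0.46 with its GC content alone. The cause of these turns was not tested. Where 1 library is left out, its group rests on 2. No paired analysis was possible because the replicate numbers were given in accession order and the columns carry none.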
